A study of Homo sapiens with 24 samples.

Results

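Myc peaks inside the bodies of protein-coding genes were examined in 2 peak lists. A peak was a member when its summit lay inside the span of a protein-coding gene and the peak did not reach within 1 kb of either end of any protein-coding gene, on chromosomes 1 to 22 and X. By this rule 514 of 3468 peaks (14.8%, 95% interval 13.7 to 16) were members without doxycycline and 1065 of 6718 (15.9%, 15 to 16.7) at day 5 of doxycycline. Of the rest, 2296 and 4475 peaks lay within 1 kb of a coding gene end and 658 and 1178 outside coding genes. The members of both lists together made up 1215 distinct sites. Sequence that could hold a member made up 1219 Mb of 3030 Mb, or 40.2%.

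CUT&Tag, the assay used, sends a transposase to an antibody's target, here Myc, where it cuts and tags the DNA. MIA PaCa-2 is an established cell line from a human pancreatic carcinoma, and these cells carried a Tet-On construct that expresses MED30 when doxycycline is given. MED30 is a subunit of Mediator, which links transcription factors to RNA polymerase II, and the design asks how its overexpression influences the binding of other factors. One library came from these cells without doxycycline and one, by its title, from the same line at day 5 of doxycycline, although the shared protocol speaks of 2 days. Both were lightly fixed with formaldehyde. No source used here says whether the line is 1 clone. The other 22 of 24 samples, control IgG libraries among them, were not analysed here, so a peak can also be background that control IgG would give. With 1 library per condition there is no replicate check and no test. Intervals are exact Clopper-Pearson for shares and exact Poisson for fragments, at 95%. They cover counting error only and treat peaks or genes as independent draws.

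Myc is a basic helix-loop-helix leucine zipper protein. It binds DNA as a pair with MAX and prefers the canonical E-box, CACGTG, and close relatives such as CACGCG. Its best known sites are promoters of active genes, among them genes for ribosome production, nucleotide synthesis and metabolism. The span of a gene in an annotation runs from the outermost start to the outermost end of all its transcripts, so many genes hold further start sites inside their span.

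Many of the strongest members lay on such internal starts. Starts were taken from RefSeq (GRCh38.p14), which lists them with strand for 15812 of 19974 coding genes and for lncRNA genes, and which covered the hosts of 450 and 904 members. A listed start lay inside the peak for 114 of 450 members without doxycycline (25.3%, interval 21.4 to 29.6) and for 301 of 904 at day 5 (33.3%, 30.2 to 36.5). A further 19.6% and 15.3% had a start within 1 kb outside the peak, and 55.1% and 51.4% had none within 1 kb. Among the starts inside members, 101 of 114 and 266 of 301 peaks held a start of the host gene itself. The other 13 and 35 held starts of lncRNA genes only.

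The promoter windows that follow, 250 bases before to 50 bases after a start, belong to internal starts that lay inside strong day 5 members. The first 6 are shown because they hold the canonical E-box, and the last 3 because strong members also lay on windows without it. Capitals mark CACGTG and, in THRAP3, CGCGTG, which is CACGCG on the other strand. The windows are chr10:25016362-25016661 for THNSL1 (plus strand), chr1:36224193-36224492 for THRAP3 (plus strand), chr22:30591861-30592160 for PES1 (minus strand), chr5:176537353-176537652 for RNF44 (minus strand), chr9:6757723-6758022 for KDM4C (plus strand), chr1:1778767-1779066 for NADK (minus strand), chr21:42879490-42879789 for WDR4 (minus strand), chr5:180810088-180810387 for MGAT1 (minus strand) and chr20:5119909-5120208 for PCNA (minus strand). Each is printed 5′ to 3′ along the gene, from RefSeq, build GRCh38.p14.
THNSL1: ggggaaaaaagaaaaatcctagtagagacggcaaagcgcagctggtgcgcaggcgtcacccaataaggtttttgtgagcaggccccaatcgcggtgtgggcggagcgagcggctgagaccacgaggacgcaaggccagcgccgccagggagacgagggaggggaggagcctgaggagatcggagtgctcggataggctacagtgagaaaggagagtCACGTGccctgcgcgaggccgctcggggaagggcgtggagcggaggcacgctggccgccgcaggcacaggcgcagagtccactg
THRAP3: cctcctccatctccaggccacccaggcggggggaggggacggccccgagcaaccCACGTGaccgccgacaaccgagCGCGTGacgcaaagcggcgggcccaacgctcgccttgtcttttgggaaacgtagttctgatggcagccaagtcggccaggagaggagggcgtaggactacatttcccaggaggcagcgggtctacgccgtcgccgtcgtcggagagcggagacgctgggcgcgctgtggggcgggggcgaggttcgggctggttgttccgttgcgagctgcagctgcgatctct
PES1: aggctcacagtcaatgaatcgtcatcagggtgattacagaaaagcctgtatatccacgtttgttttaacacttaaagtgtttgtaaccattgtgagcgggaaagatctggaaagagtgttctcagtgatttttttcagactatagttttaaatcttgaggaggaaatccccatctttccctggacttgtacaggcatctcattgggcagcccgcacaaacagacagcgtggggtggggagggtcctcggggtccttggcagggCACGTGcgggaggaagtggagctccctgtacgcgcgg
RNF44: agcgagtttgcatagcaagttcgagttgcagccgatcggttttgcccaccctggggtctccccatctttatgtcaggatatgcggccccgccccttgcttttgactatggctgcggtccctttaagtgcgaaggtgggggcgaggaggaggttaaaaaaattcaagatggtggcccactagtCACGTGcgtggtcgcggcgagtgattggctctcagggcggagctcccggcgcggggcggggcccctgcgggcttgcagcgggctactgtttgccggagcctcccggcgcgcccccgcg
KDM4C: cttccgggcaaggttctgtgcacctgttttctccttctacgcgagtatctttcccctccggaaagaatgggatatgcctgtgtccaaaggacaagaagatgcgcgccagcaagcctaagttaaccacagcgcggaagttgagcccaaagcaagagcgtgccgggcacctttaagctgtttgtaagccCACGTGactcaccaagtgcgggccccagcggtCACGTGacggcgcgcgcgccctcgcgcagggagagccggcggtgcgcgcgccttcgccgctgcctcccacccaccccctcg
NADK: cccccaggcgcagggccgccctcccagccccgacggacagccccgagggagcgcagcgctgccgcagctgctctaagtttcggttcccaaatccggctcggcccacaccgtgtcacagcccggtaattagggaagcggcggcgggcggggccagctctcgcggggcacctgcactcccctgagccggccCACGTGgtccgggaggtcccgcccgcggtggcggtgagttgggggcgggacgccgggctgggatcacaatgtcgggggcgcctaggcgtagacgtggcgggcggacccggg
WDR4: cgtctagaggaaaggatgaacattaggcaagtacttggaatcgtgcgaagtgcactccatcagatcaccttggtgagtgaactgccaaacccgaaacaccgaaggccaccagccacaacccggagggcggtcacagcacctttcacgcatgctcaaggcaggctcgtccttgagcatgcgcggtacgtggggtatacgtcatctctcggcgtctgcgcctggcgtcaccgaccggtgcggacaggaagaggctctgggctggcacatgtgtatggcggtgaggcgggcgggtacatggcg
MGAT1: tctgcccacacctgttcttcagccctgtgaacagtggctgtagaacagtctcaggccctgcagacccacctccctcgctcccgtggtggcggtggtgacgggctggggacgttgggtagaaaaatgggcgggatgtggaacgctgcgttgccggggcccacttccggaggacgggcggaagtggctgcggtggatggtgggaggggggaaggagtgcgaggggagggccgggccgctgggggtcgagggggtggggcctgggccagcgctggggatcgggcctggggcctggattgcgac
PCNA: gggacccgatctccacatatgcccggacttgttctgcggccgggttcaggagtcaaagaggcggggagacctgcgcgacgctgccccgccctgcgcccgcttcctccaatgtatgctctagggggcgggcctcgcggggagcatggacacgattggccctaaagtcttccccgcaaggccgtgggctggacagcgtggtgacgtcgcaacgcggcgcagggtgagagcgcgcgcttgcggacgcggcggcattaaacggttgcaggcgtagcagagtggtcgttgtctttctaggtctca

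The E-box began 34 bases before the start in THNSL1, which encodes a threonine synthase-like protein, and the peak there had 29 fragments over its summit without doxycycline and 45 at day 5. THRAP3, a protein of transcription and splicing complexes, had its E-box 196 bases before the start and 27 and 41 fragments. In PES1, a factor of large ribosomal subunit assembly, the E-box lay 13 bases after the start. The PES1 peak had 29 fragments (19.4 to 41.6) and 30 (20.2 to 42.8), so the intervals overlapped nearly in full. RNF44, a RING finger protein, had an E-box 68 bases before the start and 44 and 35 fragments. KDM4C, a histone H3 lysine demethylase, had one at 63 and one at 31 bases before the start, with 27 and 30 fragments. NADK, the kinase that makes NADP from NAD, had an E-box 61 bases before the start. Its peak had the fewest fragments of these 6 without doxycycline, 10 against 27 at day 5. Of the windows without either motif, that of WDR4, a subunit of a tRNA methyltransferase, had 41 and 93 fragments. MGAT1, an enzyme of N-glycan maturation, had 13 and 66, and PCNA, the sliding clamp of DNA replication, had 12 and 31. Strong members therefore occurred with and without these letters in the promoter window. The windows were placed by the start and not by the summit. In THNSL1, KDM4C, WDR4 and MGAT1 the day 5 summit lay outside the printed window. The sequence at the summits was not examined, so these windows do not show whether an E-box lay there.

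Over all windows, the E-box was more common at starts inside members than at the other starts of gene bodies. CACGTG reads the same on both strands and cannot overlap CACGCG, which was searched on both strands. Starts less than 300 bp after the last one kept on a chromosome were left out, whatever their gene, which left 30335 windows. CACGTG occurred in 7.04% of these and in 5.69% of the 7543 windows inside gene bodies. Of the windows whose start lay inside a member it was in 15.7% of 121 without doxycycline (9.73 to 23.4) and in 14% of 321 at day 5 (10.4 to 18.3), against 5.21% of 7158 windows (4.71 to 5.75) in neither. For CACGCG the shares were 26.4% and 23.1% against 6.48%. The windows also differed in base composition, with a median GC content of 63.3% and 65.7% inside members against 52.3%, and 23 and 24 CpG against 6. Among gene-body starts with a GC content of 60% or more, those with CACGTG lay in a member in 14 of 214 cases without doxycycline (6.54%, 3.62 to 10.7) and 35 of 214 at day 5 (16.4%, 11.7 to 22). Those without it did so in 3.04% (2.38 to 3.83) and 8.73% (7.61 to 9.96) of 2302. A match is a description of the window and does not show a bound site.

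**Figure D1:**
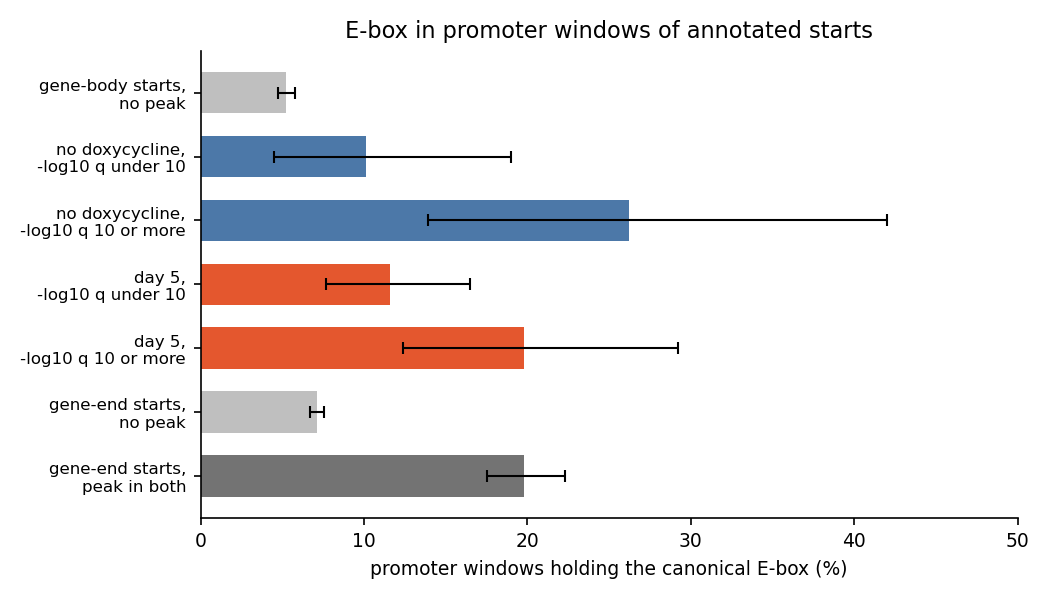
Share of promoter windows with the canonical E-box (x axis, percent), for starts in no peak, starts inside gene-body members by −log10 q, and starts at gene ends. Bars are shares and lines 95% Clopper-Pearson intervals, and the share was 26.2% and 19.8% in members whose −log10 q was 10 or more against 10.1% and 11.6% below that.

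The E-box was also more frequent in the stronger members. The authors' −log10 q of each peak was used to rank peaks within a list. Where −log10 q was 10 or more, 26.2% of 42 windows without doxycycline (13.9 to 42) and 19.8% of 96 at day 5 (12.4 to 29.2) held CACGTG. Below 10 the shares were 10.1% (4.47 to 19) and 11.6% (7.69 to 16.5), and the intervals overlapped in both libraries. For comparison, windows of gene-end starts inside a peak of both libraries held it in 19.8% of cases (17.5 to 22.3) and those in neither in 7.12%. CACGCG did not differ with strength in this way. Where −log10 q was 10 or more, 26.2% (13.9 to 42) and 26% (17.6 to 36) of member windows held it. Below 10 its shares were 26.6% (17.3 to 37.7) without doxycycline and 21.8% (16.6 to 27.7) at day 5.

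The share of members that held an internal start rose with −log10 q in both libraries. From the class under 3 to the class of 20 or more it was 14.4%, 18.5%, 27.3%, 45.6% and 76.9% without doxycycline, where the last class had 13 members. At day 5 it was 18.9%, 27%, 39.4%, 45.5% and 66.7%, where the last class had 24. Members with a start inside were also wider, with medians of 558 and 621 bp against 476 and 525 bp for those over 1 kb from a start, so the summit alone was examined too. Summits within 250 bp of a start made up 18.6%, 21.9%, 30.3%, 43.9% and 69.2% without doxycycline and 16.8%, 25.5%, 34.3%, 37.1% and 58.3% at day 5, which is the same order. Over all members whose host had a listed start, 27.8% and 29.2% of summits lay within 250 bp of a start. Of the eligible sequence in genes with a listed start, 0.361% lay that close. Within 1 kb the shares were 44% and 47.9% of these summits, against 1.39% of that sequence.

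**Figure D2:**
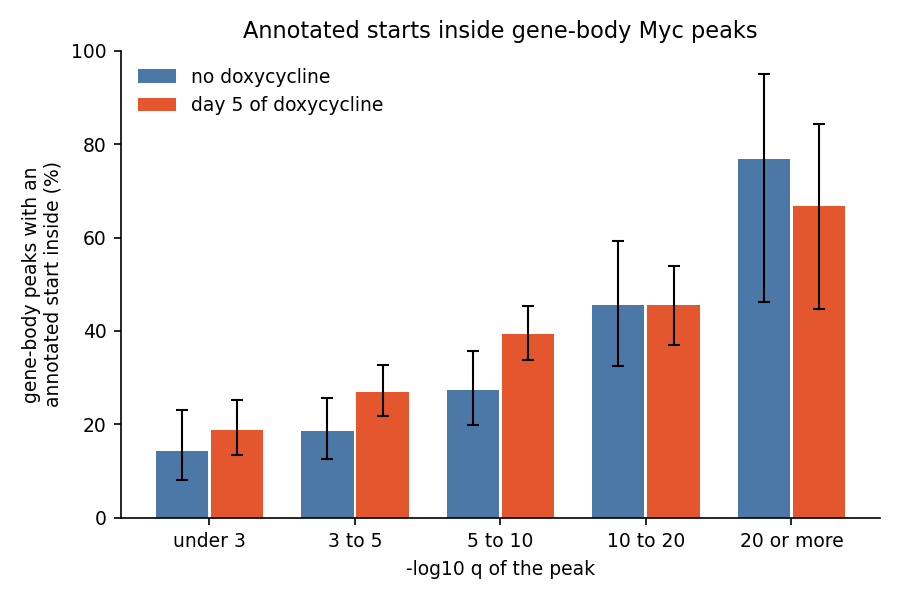
Share of gene-body members with a listed start inside the peak (y axis, percent) by class of −log10 q (x axis) in each library. Bars are shares and lines 95% Clopper-Pearson intervals, and the shares climb from 14.4% and 18.9% in the lowest class to 76.9% and 66.7% in the highest.

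Seen from the starts, thinned as for the windows, few were covered. A peak, member or not, lay over 2.31% of the 4550 coding starts inside gene bodies without doxycycline and 6.59% at day 5. For the 2993 lncRNA starts there the shares were 1.00% and 2.24%. Of the 7543 gene-body starts kept after thinning, 135 and 367 lay in some peak, and 121 and 321 in a member. Peaks covered 8.16% and 18.2% of the 16039 starts at gene ends. Of hosts with an own start inside a member, 60 without doxycycline and 156 at day 5 also had a listed start at the outer edge of the span. In 47 and 115 of these no peak lay at the start side of the span, and in 13 and 41 a peak was listed at both. Most genes had no end peak in any case. Over all coding genes with a span over 2 kb, 15.1% and 28.6% had a peak within 1 kb of either own end. The share for the start side alone was not computed over all genes, so a preference for the internal start cannot be read from these counts.

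A cluster of peaks stood apart from every other member. It lay at chr1:629329-634419 within the span of LOC102724250, over the mitochondrial pseudogenes MTND1P23, MTND2P28, MTCO1P12, MTCO2P12, MTATP8P1, MTATP6P1 and MTCO3P12, nuclear copies of mitochondrial genes. The 4 peaks without doxycycline had 205 to 424 summit fragments and the 3 at day 5 had 135 to 235. The local background of the cluster was 53.4 to 53.7 fragments without doxycycline and 38.7 to 39.2 at day 5, whereas that of all other members was at most 5.02 and 10.9. Unlike most pairs, these had fewer fragments at day 5, with a median ratio of 0.554. Reads of near-identical copies can be placed in such sequence, and their part in these peaks was not tested. Leaving the cluster out gave 510 and 1062 members and the same median of 10 and 11 summit fragments.

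Members had slightly fewer fragments than peaks at gene ends. Over the summit, the median member had 10 fragments without doxycycline, with quartiles of 7 and 14, and 11 at day 5, with quartiles of 8 and 16. At gene ends the medians were 11 and 12. Fewer than 10 fragments lay over 46.1% and 40% of members, against 40.4% and 32.5% of gene-end peaks. Members with a start inside had medians of 12 and 13 fragments, and those over 1 kb from any start 9 and 10. The median width was 483 and 539 bp, and members covered 279 and 638 kb.

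Of the members without doxycycline, 376 of 514 (73.2%, 69.1 to 76.9) shared 1 bp or more with some day 5 peak, against 87% (85.6 to 88.4) of gene-end peaks and 72.3% of peaks outside coding genes. Of the day 5 members, 368 of 1065 (34.6%, 31.7 to 37.5) had a counterpart, against 44.8% (43.4 to 46.3) of gene-end peaks. Day 5 thus had 2.07 times as many members. When the day 5 list was reduced to its 3468 strongest peaks, it held 448 members, fewer than the 514 without doxycycline. The list without doxycycline kept its weaker peaks in this comparison. With these equal numbers 49% of the members without doxycycline and 54.9% of those at day 5 had a counterpart. In the upper part of both lists, members numbered 205 and 429, a ratio of 2.09. Total reads per library are not in the lists, and the part of depth in the larger day 5 list was not tested.

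Whether a member recurred followed its strength. Under a −log10 q of 3, 39.2% (29.7 to 49.4) of members without doxycycline were also listed at day 5, against 66.6% (61.2 to 71.6) of gene-end peaks of that class. In the next classes the shares were 71.1% and 81.5%, then 85.5% and 92.1%, and from 10 to 20 they were 98.4% and 98%. At day 5 the intervals of members and gene-end peaks overlapped in every class. Below 10 the shares were 10.8% and 11.4%, 22.1% and 23.2%, and 39.1% and 42.5%. Between 10 and 20 the shares were 70.5% (62.7 to 77.5) and 78.3% (75.4 to 81).

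**Figure D3:**
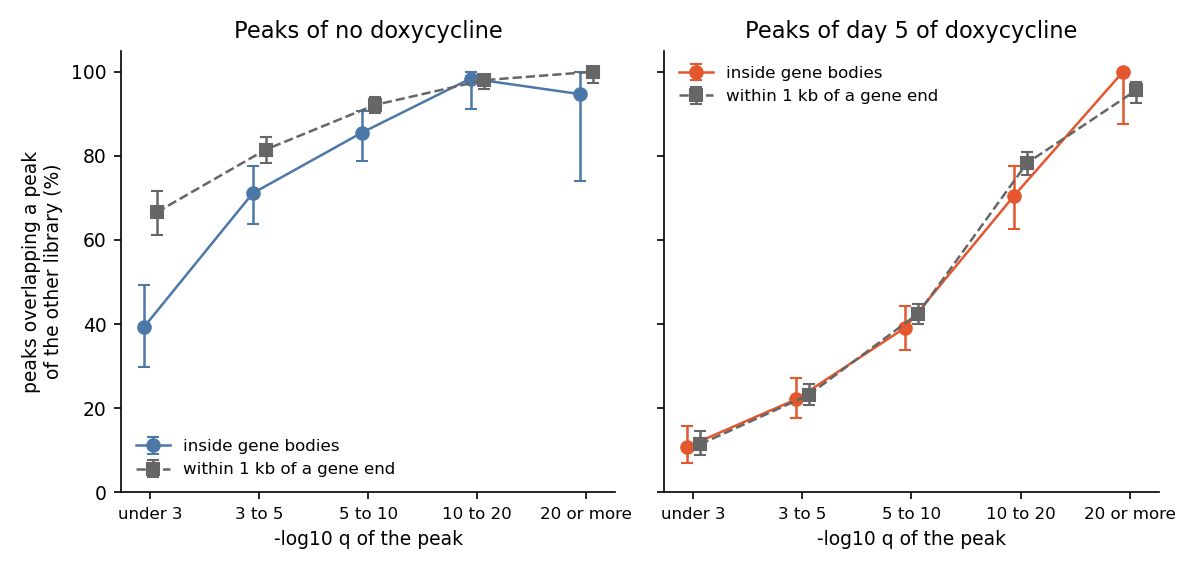
Share of peaks that overlap a peak of the other library (y axis, percent) by class of −log10 q (x axis), for gene-body members (circles) and gene-end peaks (squares), with 95% Clopper-Pearson intervals. Without doxycycline 39.2% of the weakest members and 66.6% of the weakest gene-end peaks recurred, and at day 5 the 2 series lie close together.

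Recurrence also differed with internal starts. Without doxycycline, 90.4% (83.4 to 95.1) of members with a start inside were listed at day 5, 80.7% with a start within 1 kb outside and 62.1% (55.7 to 68.2) of those farther away. At day 5 the shares were 42.9% (37.2 to 48.7), 30.4% and 32% (27.8 to 36.5). Members with a start inside were also stronger, with a median −log10 q of 6.41 and 6.37 against 4.25 and 4.53 for those over 1 kb away. The shares by start were not split by strength, so the 2 cannot be told apart here. Members listed without doxycycline and not at day 5 held a start in 9.02% of cases (4.59 to 15.6), and those listed at day 5 and not without doxycycline in 29.5% (25.8 to 33.3). The former had a median of 7 summit fragments and the latter 9.

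In 364 cases a member of one list overlapped a member of the other. The day 5 peak had more summit fragments in 270 pairs, fewer in 70 and the same number in 24. The median ratio of day 5 to no doxycycline was 1.38 (quartiles 1 and 1.75), and it was 1.44 for 1998 gene-end peaks and their counterparts. Pairs whose peak without doxycycline held a start had a median ratio of 1.56, and those over 1 kb from a start 1.32. The libraries' total reads are unknown, so a ratio above 1 cannot be told apart from a difference in depth.

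**Figure D4:**
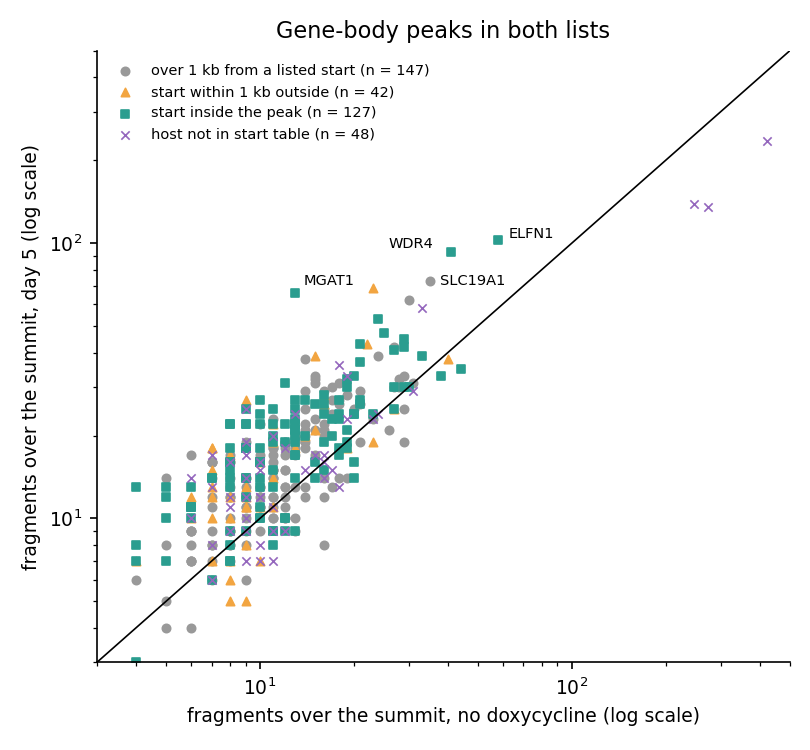
Fragments over the summit without doxycycline (x axis, log scale) and at day 5 (y axis, log scale) for the 364 paired gene-body peaks, with the line of equal numbers. Markers give the place of the day 5 peak relative to listed starts, most points lie above the line, and the 3 crosses farthest right, below it, are the chromosome 1 cluster.

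After the cluster, members with a counterpart were ranked by their −log10 q at day 5, so high day 5 values are built into the choice and the 2 libraries are not compared on them. WDR4 came first (41 fragments, 29.4 to 55.6, without doxycycline and 93, 75.1 to 114, at day 5), followed by ELFN1, a leucine-rich repeat protein of synapses. The ELFN1 peak lay on the start of the lncRNA gene ELFN1-AS1, 93% of the way along the host, and had 58 and 103 fragments. SLC19A1, the reduced folate carrier, had 35 (24.4 to 48.7) and 73 (57.2 to 91.8) fragments at 7.11 kb from its start, with no other listed start within 1 kb. MGAT1 had 13 (6.92 to 22.2) and 66 (51 to 84) fragments, a ratio of 5.08. TFAP4, itself a helix-loop-helix factor that binds E-boxes, had 33 and 58 fragments at 1.06 kb from a gene end. KLF16, a Krüppel-like zinc finger factor, had 23 and 69, and its nearest listed start was 582 bp from the peak. In LARP1, which binds messenger RNAs of the translation machinery, the peak held the start of the lncRNA gene LOC112267936 and had 24 and 53 fragments. TNFRSF1A, a receptor for tumor necrosis factor, had 30 and 62 fragments at 5.55 kb from its start. Ranked without doxycycline the order differed: ELFN1 came first and KDM3A, a histone H3 lysine demethylase, RNF44 and PMVK, a kinase of the mevalonate pathway, stood above WDR4. These 3 had 40, 44 and 38 fragments without doxycycline and 38, 35 and 33 at day 5, and were chosen after their values were seen.

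Among members listed at day 5 without a counterpart, one of the highest −log10 q values was in MSTO1, a protein of mitochondrial distribution, with 25 fragments and a start inside. MXI1, a MAX partner that opposes Myc, had 31 fragments at 182 bp from a listed start. NFIX, a nuclear factor I protein, had 27 at 35667 bp from the nearest listed start. RCN3, a calcium-binding protein of the endoplasmic reticulum, had 23 at 5460 bp from one. CHD9, a chromatin helicase, had 20 at 9 bp from a start, CHLSN had 28 at 74 bp, and CYRIB had 21. CYRIB had no host start in the table.

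Members listed without doxycycline and not at day 5 were weaker. Apart from 1 peak of the chromosome 1 cluster, the strongest was in FA2H, a fatty acid hydroxylase, with 17 fragments (9.9 to 27.2) at 30.6 kb from any listed start. SCHIP1 had 15, LONRF2 and GSE1 had 12 each, CMTM7 had 11, and MIA3, a protein of collagen export, and MAGED1 had 10 each. Only the MAGED1 peak among these named ones held a listed start. A peak missing from a list can still have fragments below the caller's limit, and a missing counterpart is a statement on the peak, not the gene. NFIX and MXI1 had another member without doxycycline and GSE1 others at day 5. SCHIP1 also had another member at day 5, with 16 fragments at chr3:159763559-159764424. It lay close to the peak without doxycycline, at chr3:159765369-159765781.

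Members were spread over many genes. Without doxycycline they lay in 489 of 18725 coding genes with a span over 2 kb, a background of 2.61%, and at day 5 in 965, or 5.15%. Both libraries had a member in 377 of these hosts and either in 1077. Day 5 alone had 588 hosts (3.14%) and the library without doxycycline alone 112 (0.598%). A single member was found in 458 and 871 hosts. Hosts had a peak at one of their own ends in 13.3% (10.4 to 16.6) and 24.6% (21.9 to 27.4) of cases, whereas over all such genes the share was 15.1% and 28.6%. The interval for hosts held the share of all genes without doxycycline and lay below it at day 5. All genes include the hosts, and the shares were not matched by span, so the part of gene length was not tested.

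Hosts were long, but members were densest in short genes. The median host span, counted per member, was 74.5 and 69.8 kb, against 27.3 kb over all coding genes over 2 kb. Per Mb of eligible sequence, genes of 2 to 10 kb had 1.46 members without doxycycline and 2.92 at day 5. The density fell with each class of span, through 0.928 and 2.21 at 10 to 30 kb, 0.702 and 1.37 at 30 to 100 kb, and 0.347 and 0.733 at 100 to 300 kb, to 0.136 and 0.267 over 300 kb. By chromosome the density was highest on chromosome 19, at 1.6 and 3.35 per Mb.

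**Figure D5:**
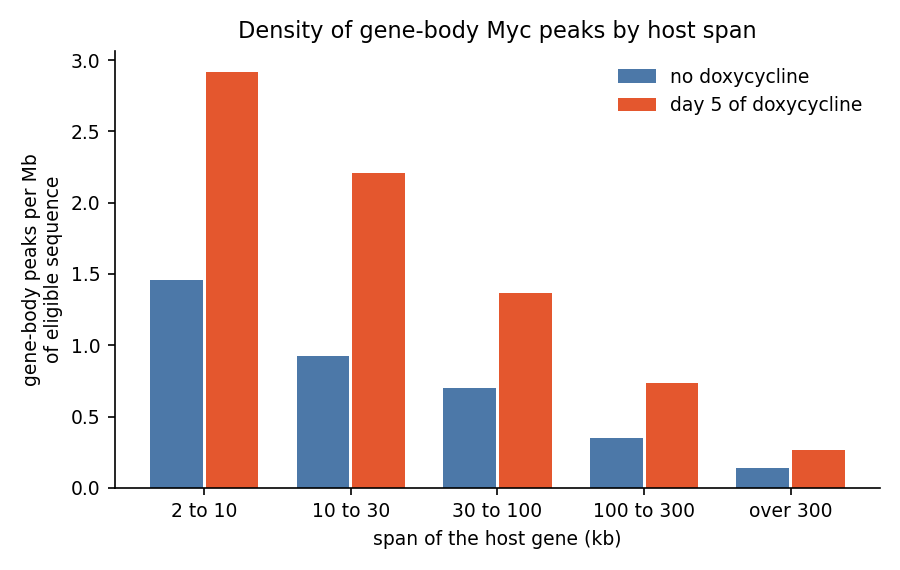
Gene-body members per Mb of eligible sequence (y axis) by span of the host gene in kb (x axis) in each library. Bars fall from 1.46 and 2.92 in genes of 2 to 10 kb to 0.136 and 0.267 in genes over 300 kb.

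Within hosts, members lay more often toward the start. Where the strand was known, 37 summits without doxycycline were 1 to 2 kb from the host's start and 7 as far from its far end, and at day 5 these numbers were 68 and 15. From 1 to 5 kb they were 75 and 36, and 153 and 73. Members over 1 kb from any listed start showed no such lean, with 30 and 27 summits from 1 to 5 kb without doxycycline and 53 and 54 at day 5. That class leaves out peaks near listed starts by definition. The sequence it leaves on each side was not measured, so part of the change can come from the definition. With each span cut into 10 equal parts, the part at the start held 13.6% of members in both libraries and the part at the far end 4.89% and 4.98%.

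A few long genes held several members. BCAR3, an adaptor of integrin signaling, had 3 members without doxycycline and 4 at day 5 across 286 kb, and PDE10A, a cyclic nucleotide phosphodiesterase, had 3 and 4 across 661 kb. DLGAP1, a scaffold protein of synapses, had 3 and 4. Its members lay 82.3% to 89.8% of the way along a 959 kb span, and the strongest had 24 and 39 fragments. GNG7, a G protein subunit, had 2 and 4, PRKAG2, a regulatory subunit of AMP-activated kinase, 2 and 4, and CNIH3, an auxiliary protein of glutamate receptors, 1 and 4. Their peaks had 5 to 39 summit fragments, and only CNIH3 and PRKAG2 of the 6 also had a peak at an own end.

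Members also lay near non-coding genes. An annotated end of one was within 1 kb of 95 members without doxycycline (18.5%, 15.2 to 22.1) and 188 at day 5 (17.7%, 15.4 to 20.1). Of the eligible sequence, 2.9% of single bases lay that close, a narrower measure, because a member was counted by the nearest edge of its peak. Peaks of the chromosome 1 cluster, which lie on pseudogenes, are among these members. Ends of lncRNA genes accounted for 78 and 155 of these, and ends of miRNA genes for 7 and 17. In KCTD2 one member overlapped the arginine tRNA genes TRR-CCT1-1 and TRR-CCT2-1 in both libraries, with 29 fragments without doxycycline and 25 at day 5. RN7SL1, the RNA of the signal recognition particle, lay under a member in the span of RPS29 with 16 and 25 fragments. RNU4ATAC, an RNA of the minor spliceosome, lay under one in CLASP1 with 12 and 18. The member that overlapped MIR639 in TECR had 18 summit fragments in both libraries and also held a listed start. The member that overlapped MIR4519 in BCL7C had 15 and 16. Without doxycycline the BCL7C peak was 37 bp from a listed start and its summit lay outside MIR4519. Genes such as RN7SL1 and the tRNAs have near-identical copies, so the placement of their reads is uncertain.

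Gene lists were counted by hosts, beside the 2.61% and 5.15% of all genes. Long genes offer more sequence, so each count is also set beside its span-class number, the hosts that the list would have if its genes held members at the rates of all coding genes in the same classes of span. Of 30 genes of the Myc and MAX network, 4 were hosts in each library (13.3%), beside span-class numbers of 0.814 and 1.62. They were MXI1, MNT, RUVBL1 and HUWE1. MNT, a MAX partner that represses Myc targets, had 15 (8.4 to 24.7) and 33 (22.7 to 46.3) fragments at 8.09 kb from its start. RUVBL1, an ATPase and Myc cofactor, had 17 and 20 on an internal start, and HUWE1, a ubiquitin ligase of Myc, had 10 in both libraries. For MXI1, the host call without doxycycline came from another peak than its day 5 peak, which had no counterpart.

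Receptor tyrosine kinases held members in 7 of 37 genes without doxycycline (18.9%) and 5 at day 5 (13.5%), beside span-class numbers of 1.43 and 2.76. INSR, the insulin receptor, had 14 (7.65 to 23.5) and 38 (26.9 to 52.2) fragments 53.2% of the way along its span. EGFR had 18 and 31 at 114 kb from its start, and IGF1R had 17 fragments without doxycycline and 13 at day 5 in a paired peak, a ratio of 0.765, and 14 and 9 in day 5 peaks without a counterpart. MET and EPHB2, chosen after their values were seen, were hosts without doxycycline and not at day 5, with weak peaks of 7 and 5 fragments. No listed start lay within 1 kb of any of these peaks.

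Histone and chromatin enzymes held members in 4 of 49 genes without doxycycline (8.16%) and 11 at day 5 (22.4%), beside span-class numbers of 2.24 and 4.28. Besides KDM4C and CHD9 they included SMARCA2, an ATPase of chromatin remodelling, with 13 and 22 fragments on an internal start. Genes of TGF-beta signaling held them in 3 and 7 of 32, beside 1.26 and 2.41. Among these, SMAD3, the signal transducer, had 13 fragments at day 5 on an internal start, and 6 in another day 5 member. These lists had median spans of 115 and 79.5 kb. Genes of AP-1 and related factors held members in 4 and 5 of 31, beside span-class numbers of 0.846 and 1.66. Actin and adhesion genes did so in 3 and 6 of 46, beside 2.07 and 3.95. Nuclear receptors had 3 and 5 hosts of 39, beside 1.49 and 2.85, and splicing factors 3 and 5 of 38, beside 1.25 and 2.45. MAPK and Ras genes had 2 hosts of 30 in both libraries, beside 0.881 and 1.75, and Wnt and Notch genes 3 and 2 of 35, beside 1.24 and 2.36. Genes of nutrient signaling had 2 and 3 of 36, beside 1.48 and 2.84, circadian clock genes 1 and 3 of 24, beside 0.771 and 1.49, and cell cycle genes 1 and 2 of 39, beside 0.88 and 1.78.

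The ribosome and nucleolus list had many end peaks and 1 host. Of its 34 genes, 23 without doxycycline and 28 at day 5 had a peak at an own end, and PES1 was its host in both libraries, beside span-class numbers of 0.682 and 1.38. Mediator and polymerase genes had 1 host of 32, MED15, a Mediator tail subunit, with 10 and 11 fragments, beside 1.15 and 2.22. Drivers of pancreatic cancer had 1 of 28, PBRM1, a chromatin remodelling subunit, with 9 and 12, beside 1.12 and 2.1. Very long genes of fragile sites had none of 35 without doxycycline and 2 at day 5, NRXN3 and SMYD3, with 3 fragments each, below span-class numbers of 2.27 and 3.99. Of markers of other cell types, leukocyte genes (26) and hepatocyte genes (25) had no host in either library, where span class gives 0.601 and 0.375 without doxycycline and 1.19 and 0.786 at day 5. Pancreatic acinar and endocrine genes had none of 31 and then 1, PAX6 with 13 fragments at day 5, beside 0.407 and 0.884. Neuronal genes had 2 and 3 of 30, beside 1.31 and 2.44. A peak in a gene does not show that it is expressed, so these counts are no check of the cell type.

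At the edge of the rule, the members nearest a coding gene end were 1005 bp (FNDC3A) and 1020 bp (JADE1) away without doxycycline and 1008 bp (TP53I13) and 1018 bp (KLLN) at day 5. The nearest peaks left out were at 982 bp (RNF6) and 976 bp (NACC2), and at 998 bp (LOC102724560) and 989 bp (UNC5CL).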

How the data were processed

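Myc CUT&Tag peak lists of 2 libraries were used, grouped by sample titles. The submitters' processing notes name build hg38 and the tools MACS2, Bowtie2, Trim Galore and deepTools; versions, settings and any control in the peak calls: not given in the sources used here. Each list has 10 columns and peaks were called per library. The deposited score is the integer part of 10 times the −log10 q-value. The authors also deposited the fold enrichment at the summit, a ratio to local background, both −log10 values (of p and of q), and the summit offset in bp. Fragments over a summit were recovered from the deposited fold and −log10 p-value, taking fold as (fragments + 1)/(background + 1) and p as a Poisson tail, within 0.001, for 99.9% of 3559 peaks without doxycycline and 6951 of 6953 at day 5. Duplicates and total reads cannot be seen in peak lists.

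Gene spans, starts and promoter windows came from RefSeq GRCh38.p14, which is hg38. The start table lists 34961 starts, thinned to 30335 for the windows and for the shares of starts covered by peaks. Members whose host has no start in the table, all hosts on chromosome 8 among them, were left out of shares on starts. Genes were counted as hosts by any span holding a summit, and a peak was named after the shortest. Python 3.11.15, numpy 2.4.6, pandas 2.3.3 and scipy 1.17.1 were used, and the recovery, classing and overlap steps were tested on simulated data.

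Members, the 22 gene lists and tests were chosen with earlier results of these data known. Named genes are the 10 highest day 5 members with a counterpart by −log10 q, the 8 highest listed at day 5 and the 8 highest without doxycycline with none, the 6 genes with most day 5 members, and up to 3 hosts per list; members on internal starts whose sequence is shown, and further list hosts, were chosen after their values were seen. Results for 1 named gene and 1 gene list are not reported here. WDR25, also with 4 day 5 members, fell outside the rule by alphabet. E-box counts around summits were planned and replaced by promoter windows. The internal starts, the E-box windows and leaving out the chromosome 1 cluster were chosen after seeing the data. Alternatives were other parts of each list, distances from gene ends, merging, midpoints and overlap rules.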

Additional observations from a re-analysis of the deposited data

How the results depend on the processing

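The summaries were recomputed under 15 alternative settings, which gave 82 values. Of these, 45 stayed within the 95% interval of the value reported, or within 1.5 times it for counts, and 37 moved. Starts, and leaving out the chromosome 1 cluster, were added after seeing the data. No paired analysis was possible because each condition has 1 library, and the replicate numbers in the labels belong to libraries not analysed here. E-box counts within 50 or 150 bp of summits were not run.

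In the upper part of each list, a −log10 q of at least 5, or the 10000 bp distance from gene ends, members numbered 205, 232 and 302 without doxycycline and 429, 532 and 600 at day 5. Hosts numbered 202, 226 and 280, and 416, 510 and 527. The ratio of day 5 members to those without doxycycline was 2.09, 2.29 and 1.99. It turned below 1 with equal numbers of peaks, where the day 5 list alone was cut. Day 5 then had 448 members in 432 hosts, a ratio of 0.872. Shared members were then 49% and 54.9%, and with a reciprocal overlap of 50% they were 59.1% and 28.3%.

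Hosts with an end peak made up 6.93% and 15.4% in the upper part and 7.52% and 16.5% at a −log10 q of at least 5, and 15.7% at day 5 with equal numbers. Those settings cut gene-end peaks along with members, and the share over all genes was not recomputed under any setting. With the gene-end distance, and the window for end peaks, at 2500 bp the shares were 17.3% and 29.9%, at 10000 bp 24.3% and 40%, and at 500 bp 20.5% at day 5. Members near a non-coding gene end made up 22.2% and 23% within 2500 bp and 15.4% at day 5 within 500 bp.

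Members with a start inside made up 36.9% and 44.7% in the upper part, 35.6% and 42.8% at a −log10 q of at least 5, and 43.9% at day 5 with equal numbers. Counting summits within 250 bp of a start gave 29.2% at day 5. The 2 libraries, the few fragments per summit and the unknown total reads limit every comparison between conditions, and weak peaks present in one list may fall just below the limit in the other. Shares on starts rest on the listed starts alone.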
